A study of Homo sapiens with 18 samples.

Results

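Ribosome footprints from the cytosolic fraction of UFM1-KO cells were compared with those of unedited HEK293 cells (WT). The comparison uses 4 of the 18 libraries of the study, chosen by their labels: libraries a and b of UFM1-KO and libraries a and b of WT. HEK293 is a human embryonic kidney line. UFM1-KO is 1 clonal line made from it with Cas9 and a guide against UFM1, so that a difference between UFM1-KO and WT cannot be told apart from a difference between clones. UFSP2-KO, a clonal Cas9 knockout of UFSP2, was profiled beside them. Cells of every line were grown in DMEM with FBS and received no further treatment. Membrane footprints and whole-cell mRNA of the same lines are given beside the cytosol values, with 2 libraries per group. All 12 footprint libraries were fitted together, so that those outside the comparison share in the filter on low counts and in the estimate of the spread.

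UFM1 is a small ubiquitin-like protein. An E1, an E2 and an ER-bound E3 ligase couple it to lysines of other proteins, and the protease UFSP2 takes it off again. The best known substrate is RPL26, which sits in the large subunit of the ribosome near the exit of the nascent chain tunnel, and its modification takes place on ribosomes at the ER membrane. Digitonin opens the plasma membrane and leaves the ER in the pellet, so the digitonin lysate holds mainly ribosomes that are free in the cytosol. Footprints are the mRNA stretches that a ribosome shields from RNase I, and their number on a transcript follows both the mRNA level and how often the transcript is translated.

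Summed over all transcripts, there were 1907000 and 2671157 counts in the UFM1-KO cytosol libraries a and b, and 1393032 and 6666021 in those of WT. These sums can count a read more than once, since transcripts of a gene can share reads. The features tested held 1267649 and 1750437 counts in UFM1-KO, against 916711 and 4331549 counts in WT. Counts are given per Ensembl transcript, and transcripts with the same counts in all 12 footprint libraries were merged into 1 feature, which left 11065 features with enough counts to test. No source used here pairs these transcript IDs with gene names. Loss of UFM1, the HEK293 identity and the separation of the fractions were therefore not checked with known genes. Features are described by transcript ID or by coding length in codons, as read from the unlabelled length column. That column runs from -17 to 35971, so its values cannot be full coding lengths. Lengths are given as tabulated. Values are CPM, counts scaled to the TMM-adjusted total of the features tested, and are not corrected for length, so that levels are compared between lines and not between features. Log2 CPM of the replicate libraries correlated across 7797 features at r = 0.964 in UFM1-KO and 0.962 in WT.

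The precision of a change depended on the level of the feature. Between 1000 and 1000000 CPM, the log2 difference between libraries a and b had an SD of 0.258 in UFM1-KO and 0.22 in WT, over 158 features. Between 10 and 30 CPM the SD was 0.585 in UFM1-KO and 0.557 in WT, and under 3 CPM it was 0.99 and 1.03. The median standard error (SE) of the log2 change of UFM1-KO less WT was 0.185 in the highest of these ranges, 0.34 at 10 to 30 CPM and 1.12 under 3 CPM. The smallest change called, a log2 of -0.699, was that of a feature of 106 codons with 1448 and 1582 CPM in UFM1-KO and 2527 and 2392 CPM in WT.

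Few features differed between the lines, and most of those that did were lower in UFM1-KO. The quasi-likelihood test of edgeR, with Benjamini-Hochberg adjustment and a threshold of 0.05, found that 76 of 11065 features fell (0.687%) and 18 rose (0.163%), together 94 (0.85%). Before adjustment 1256 features (11.4%) had a p under 0.05. The balance of directions was not stable: without UFM1-KO library b 23 of 29 calls were higher (79.3%), without WT library a 41.8% of 110 were, and with library size in place of TMM there were 23 higher and 27 lower. The falls were mostly moderate, with a median log2 change of -1.09, and 54 of the 76 exceeded 2-fold. The rises were larger, with a median of 2.04, and 17 of the 18 exceeded 2-fold. They also lay at lower levels, with a median of 19.9 CPM against 72.7 CPM for the falls. At such levels the SE is larger and only larger changes can be called. With the 2 features in each direction that had 0 counts in 1 line set to their bounds (3 counts over the group), the medians were -1.09 and 2.04 as well.

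The calls were made on the libraries compared here, so a separation of the lines among called features is largely built in. It is no support for the calls. All 76 features that fell lay lower in both UFM1-KO libraries than in both WT libraries. Among all features tested 18.7% did so. Of the 18 that rose, 16 were higher in both UFM1-KO libraries than in both WT libraries, against 17.9% of all features. The remaining 2 are transcripts of 1118 codons with nearly the same counts, at 68.6 and 61.7 CPM in UFM1-KO library a but 1.51 CPM each in UFM1-KO library b, against 3 CPM each in WT library a and 1.84 CPM each in WT library b. Both were high in UFM1-KO library a and in no other library of the 4. Counts that agreed within 10% plus 1 count in every cytosol library linked 4 of the 94 features into 2 pairs, so such transcripts may share their reads.

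**Figure D1:**
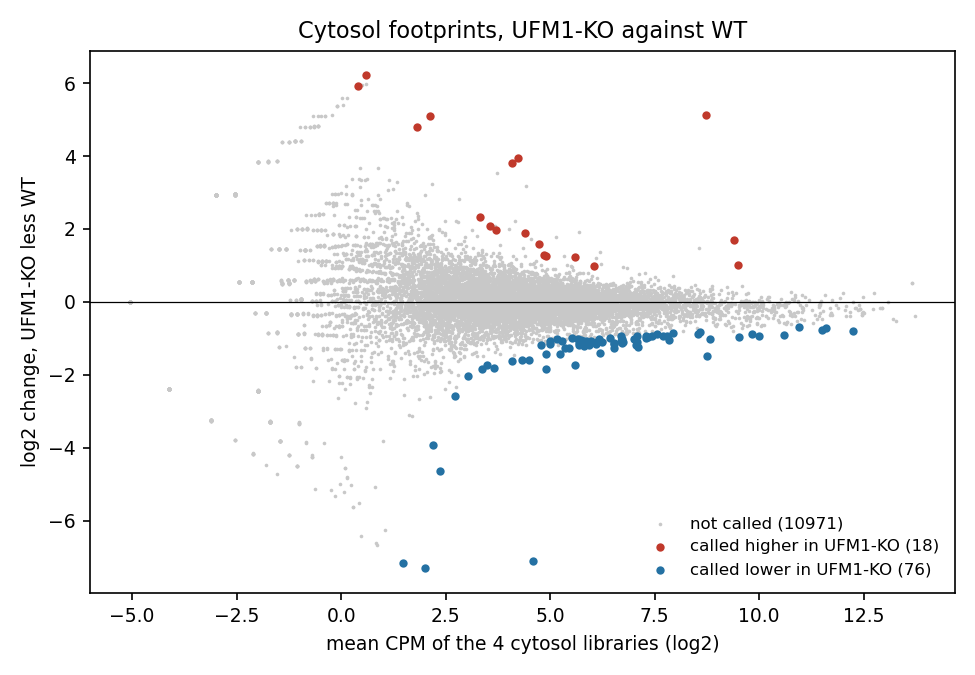
Log2 change of cytosol footprints, UFM1-KO less WT (vertical), against the mean CPM of the 4 cytosol libraries on a log2 scale (horizontal); each point is 1 of 11065 features. The 76 features called lower (blue) follow the lower edge of the cloud up to the highest levels, and the 18 called higher (red) lie above it, mostly at lower levels.

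The falls reached into the features with the most cytosol footprints. Over 1000 CPM, 6 of 158 features fell (3.8%) and 0 rose, whereas at 10 to 30 CPM 10 of 3032 fell (0.33%) and 8 rose (0.264%). The median log2 change of all features moved with level too. It was 0.395 under 3 CPM, 0.0166 at 10 to 30 CPM and -0.199 over 1000 CPM. The counts by level are thus not particular to the called features. The highest of the features that fell, of 838 codons, had 3625 and 3410 CPM in UFM1-KO and 6043 and 6264 CPM in WT. Its log2 change was -0.807 (SE 0.153, edgeR adjusted p = 0.0159). A feature of 85 codons had 1032 and 1117 CPM in UFM1-KO, against 2144 and 1905 CPM in WT, with a log2 change of -0.913 (SE 0.177, edgeR adjusted p = 0.0159). In both, the lines were apart by far more than their libraries. All 76 together held 1.94% and 1.87% of the footprints tested in UFM1-KO and 3.34% and 3.06% in WT. The 18 that rose held 0.47% and 0.276% in UFM1-KO, against 0.127% and 0.0802% in WT. The features of each set were chosen by this contrast, so these shares describe their size and carry no test.

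The lowest adjusted p belonged to a feature of 305 codons that was nearly absent from UFM1-KO. It had 0 counts and 1 count in the UFM1-KO cytosol libraries, against 55 and 40.3 CPM, a total of 230 counts, in WT. The ratio of UFM1-KO to WT was 0.00675 (exact 95% interval 0.00017 to 0.038, counting error only), with an edgeR adjusted p of 1.12e-07. In the membrane fraction it had 0.369 and 2.15 CPM in UFM1-KO and 47.8 and 51.2 CPM in WT, and its mRNA was 0.118 and 0.269 CPM in UFM1-KO and 29.3 and 41.6 CPM in WT. UFM1-KO was far below WT in all 3 assays. In UFSP2-KO cytosol the same feature stood at 100 and 105 CPM. A feature of 116 codons came next, with 254 and 206 CPM in UFM1-KO, against 603 and 665 CPM in WT (log2 change -1.47, SE 0.206, edgeR adjusted p = 8.12e-04). Its mRNA was also lower, at 73.8 and 106 CPM in UFM1-KO and 263 and 260 CPM in WT (edgeR adjusted p = 0.00121). These features of 305 and 116 codons were the only 2 of the 94 that edgeR called in all 4 fits that left out 1 of the compared libraries.

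Among features with at least 20 counts in a compared library and no overlap between the lines, the lowest fitted changes were those of ENST00000397709.1 and ENST00000338379.5. Both had 0 counts in UFM1-KO, so the fitted changes do not measure their size, and the bounds below are smaller than the fall of the feature of 305 codons. Footprints of ENST00000397709.1, with a length of 101 codons, numbered 0 in both UFM1-KO cytosol libraries, against 11 and 22 counts (11 and 5.07 CPM) in WT. The level was at least 7.08-fold lower in UFM1-KO, taking 3 counts over its 2 libraries as the floor (edgeR adjusted p = 0.0159). Its mRNA was 1.18 and 2.21 CPM in UFM1-KO, against 8.05 and 11.9 CPM in WT, which edgeR also called lower (log2 change -2.57, SE 0.393, adjusted p = 0.00195). ENST00000338379.5, of 187 codons, had 0 counts in both UFM1-KO cytosol libraries and 4 and 31 counts (4 and 7.14 CPM) in WT. That is at least 7.51-fold lower with the same floor (edgeR adjusted p = 0.0159). The mRNA of ENST00000338379.5 was 2.68 and 2.05 CPM in UFM1-KO and 11.4 and 6.67 CPM in WT (log2 change -1.92, SE 0.367, edgeR adjusted p = 0.0116). In the membrane fraction both were detected in UFM1-KO, ENST00000397709.1 at 0.924 and 0.536 CPM against 4.9 and 4.05 CPM in WT, and ENST00000338379.5 at 0.554 and 0.536 CPM against 4.09 and 3.63 CPM in WT. The adjusted p of these membrane changes was 0.0586 and 0.0521 by edgeR, above the threshold of 0.05. The calls in the cytosol rest on few counts, and neither held without UFM1-KO library a (edgeR adjusted p = 0.0731 and 0.0817) or library b (0.108 and 0.126). Without WT library b the call of ENST00000338379.5 was lost as well (edgeR adjusted p = 0.222).

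The largest rise under the same rule was that of ENST00000449193.5, a feature of 888 codons. Its cytosol footprints were 1401 and 243 CPM in UFM1-KO, against 57 and 7.14 CPM in WT. Its log2 change was 5.13 (SE 0.971, edgeR adjusted p = 0.0159). Both UFM1-KO libraries were above both WT libraries, but in each line library a was far above library b, and so it was in UFSP2-KO cytosol, at 81.6 and 21.1 CPM. Membrane footprints of ENST00000449193.5 showed such a split in UFM1-KO, at 88.7 and 7.51 CPM, but a much smaller one in WT, at 8.99 and 5.3 CPM. Its membrane change from WT was not called (edgeR adjusted p = 0.17). Its mRNA was 31.6 and 25.5 CPM in UFM1-KO and 15.9 and 20.4 CPM in WT (edgeR adjusted p = 0.271). Without UFM1-KO library a the log2 change was 3.41 and without WT library b it was 3.85, and edgeR called it in neither fit (adjusted p = 0.0897 and 0.134).

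ENST00000368221.1, of 118 codons, rose without such a split. It had 15.8 and 17.1 CPM in UFM1-KO, against 4 and 2.99 CPM in WT (log2 change 2.33, SE 0.499, edgeR adjusted p = 0.0252). Its membrane footprints rose by nearly the same amount, with 9.24 and 8.05 CPM in UFM1-KO and 2.86 and 1.12 CPM in WT (log2 change 2.38, SE 0.499, edgeR adjusted p = 0.0149). The mRNA of ENST00000368221.1 was 9.8 and 13.5 CPM in UFM1-KO and 3.97 and 4.27 CPM in WT, a log2 change of 1.5 (SE 0.455) that edgeR did not call (adjusted p = 0.107). In the cytosol of UFSP2-KO there were 0 counts and 2 counts. Its rise in UFM1-KO cytosol rested on 23 and 34 counts, and edgeR called it in 1 of the 4 fits without a compared library, the fit without WT library a.

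**Figure D2:**
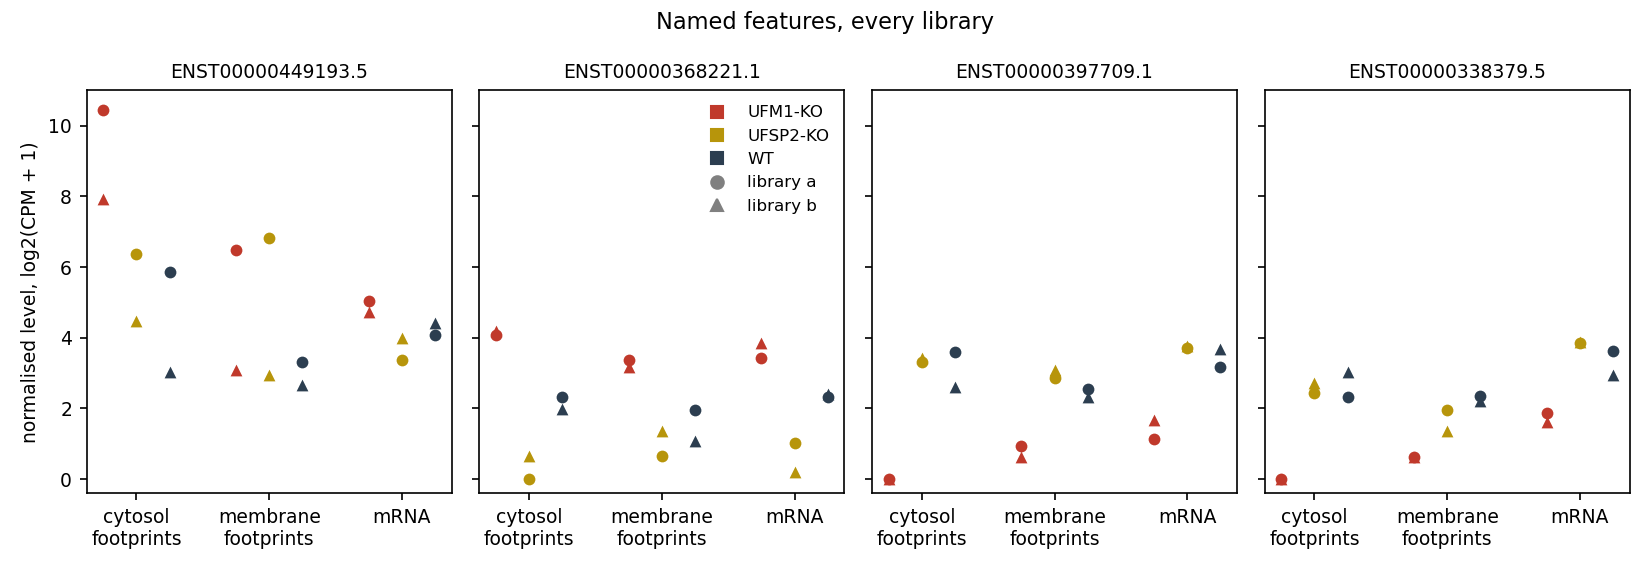
Normalised level of the 4 named features, as log2(CPM + 1), in every library of cytosol footprints, membrane footprints and mRNA; circles are libraries a and triangles libraries b, with UFM1-KO in red, UFSP2-KO in yellow and WT in dark blue. In the cytosol the UFM1-KO points of ENST00000449193.5 and ENST00000368221.1 lie above both WT points, and those of ENST00000397709.1 and ENST00000338379.5 lie at 0.

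Features that rose and had high levels were few. A feature of 203 codons had 914 and 999 CPM in UFM1-KO and 419 and 531 CPM in WT (log2 change 1.01, SE 0.243, edgeR adjusted p = 0.0425). Its mRNA rose as well, to 430 and 435 CPM in UFM1-KO, against 147 and 129 CPM in WT (log2 change 1.65, SE 0.206, edgeR adjusted p = 3.41e-04), while UFSP2-KO cytosol held 4.44 and 2.94 CPM. A feature of 450 codons had 1231 and 820 CPM in UFM1-KO, against 527 and 120 CPM in WT, with a log2 change of 1.71 (SE 0.359, edgeR adjusted p = 0.0217). The membrane fraction held 978 and 879 CPM of it in UFM1-KO and 876 and 863 CPM in WT, and its mRNA was 162 and 196 CPM in UFM1-KO and 193 and 212 CPM in WT. For the feature of 450 codons, WT library a lay closer to UFM1-KO library b than to WT library b.

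Where the cytosol fell, membrane footprints and mRNA of the same line mostly lay lower too. These are separate libraries, so the cytosol calls did not fix their direction. Of the 76 features that fell, 73 had a negative change in membrane footprints (96.1%), with a median of -0.713. Among all features with a negative cytosol change 55.2% had one, with a median of -0.0456. In membrane footprints, where edgeR called 139 features (1.26%), 15 of the 76 were called lower, against 0.741% of all features, and 1 was called higher. Their mRNA change was negative in 71 of 76 (93.4%), with a median of -0.722, against 58.9% and -0.0851 for all features with a negative cytosol change. In mRNA, where 274 of 13889 features were called (1.97%), 21 of the 76 were called lower, against 1.59% of all, and 0 were called higher. The median fall in cytosol footprints was larger than that in the membrane fraction or in mRNA, a difference that selection on the cytosol values can produce by itself.

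For the 18 that rose, the other assays were more mixed. Membrane footprints had a positive change in 16 of 18 (88.9%), with a median of 0.513, against 66% and 0.131 for all features with a positive cytosol change. Of the 18, 5 were called higher in the membrane fraction, where 0.515% of all features were, and 0 were called lower. In mRNA 13 of the 17 matched features had a positive change (76.5%), against 62% of all with a positive cytosol change, and 2 were called higher, where 0.382% of features were. Whether the rises and the falls differ in this was not tested.

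**Figure D3:**
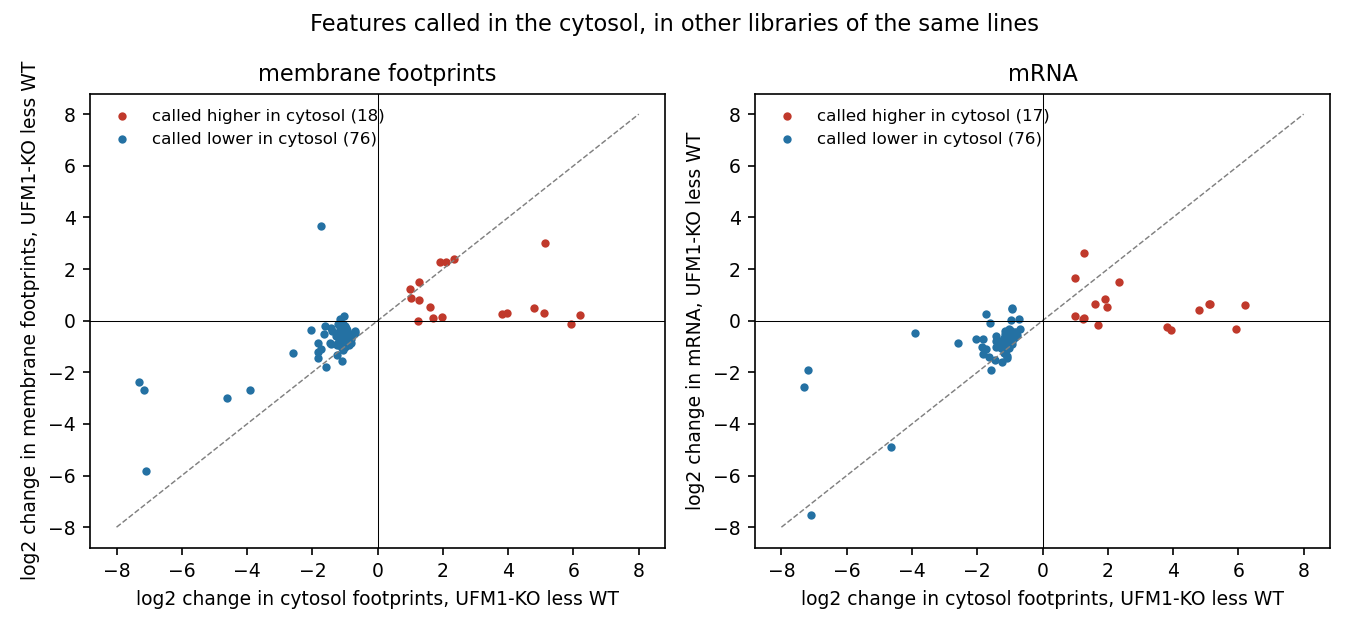
Log2 change of UFM1-KO less WT in membrane footprints (left) and in mRNA (right) against that in cytosol footprints, for the 94 features called in the cytosol (93 in mRNA); the dashed line marks equal change. Blue points, called lower in the cytosol, lie below 0 for 73 of 76 features in the membrane fraction and for 71 of 76 in mRNA, while several red points, called higher, lie near 0.

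The reverse view used features called in mRNA or in the membrane fraction, whatever their cytosol change. Only features that passed the footprint filter on low counts, which includes the cytosol libraries, could enter. Of all 11065 features tested, 5314 had a negative and 5600 a positive cytosol change, and 0.687% were called lower and 0.163% higher in the cytosol. Cytosol changes were negative in 119 of 149 features with lower mRNA in UFM1-KO (79.9%), with a median of -0.939, and 21 of the 149 were called lower in the cytosol. They were positive in 38 of 42 features with higher mRNA (90.5%), with a median of 0.733, and 2 of the 42 were called higher. Of 82 features with lower membrane footprints 66 had a negative cytosol change (80.5%), and of 57 with higher membrane footprints 51 had a positive one (89.5%). From a mean of 10 CPM upward, the cytosol change correlated with the membrane change at r = 0.286 (7797 features) and with the mRNA change at r = 0.242 (7639 features). These are correlations across features of 1 set of libraries. The values being compared share no library.

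Tests of the difference between assays called 1 feature. The cytosol change differed from the membrane change in 1 of 11065 features by edgeR (0.00904%), with 539 (4.87%) at an unadjusted p under 0.05. That feature, of 182 codons, had 28.1 and 18.2 CPM in UFM1-KO cytosol, against 62 and 85 CPM in WT cytosol, and 16.4 and 1.07 CPM in the membrane fraction of UFM1-KO, against 1.23 and 0.698 CPM in that of WT. It was thus called lower in the cytosol and higher in the membrane fraction (edgeR adjusted p = 0.0406 and 0.0078). The difference was not called without membrane library a of UFM1-KO or membrane library b of WT. Relative to mRNA, edgeR called 0 of 12619 features in the cytosol (0%), with 752 (5.96%) at an unadjusted p under 0.05, and DESeq2 called 0, with 706 unadjusted. The 94 cytosol calls were selected on the cytosol change, which is part of the comparison with mRNA, so an excess of low p among them is built in. Of these calls 28 had an unadjusted p under 0.05 in that comparison, 14 of the 17 matched rises and 14 of the 76 falls. These counts moved with the setting: with no filter on low counts edgeR called 7 features relative to the membrane fraction and 24 relative to mRNA, and without UFM1-KO cytosol library b it called 11 and 15.

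UFSP2-KO cytosol was compared through the same WT libraries, so both comparisons share them. In UFSP2-KO less WT edgeR called 442 features (3.99%), 165 higher (1.49%) and 277 lower (2.5%), with 2104 (19%) at an unadjusted p under 0.05. The 76 features that fell in UFM1-KO had a median log2 change from WT of -1.09 in UFM1-KO, against 0.195 in UFSP2-KO. For the 18 that rose the medians were 2.04 in UFM1-KO, against 0.641 in UFSP2-KO. In the direct test of UFM1-KO less UFSP2-KO, which does not use the WT levels as a baseline, edgeR called 1331 features (12%), 645 higher (5.83%) and 686 lower (6.2%), and 2854 (25.8%) had an unadjusted p under 0.05. Of the 76, 64 were lower in UFM1-KO than in UFSP2-KO, 1 was higher and 11 were not called. Of the 18, 11 were higher and 7 were not called. Both tests use the same UFM1-KO libraries, so these counts are no independent support for the calls against WT. The feature of 838 codons had 3625 and 3410 CPM in UFM1-KO, against 8864 and 9723 CPM in UFSP2-KO, with WT between them (log2 difference -1.4, SE 0.155, edgeR adjusted p = 7.34e-07).

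Coding length went with the change from WT, mainly against WT library b. Features that fell had a median length of 260 codons, between 49 and 838, against 455 codons for all features tested and 449 for those that rose. The share that fell was 1.67% of features under 100 codons, 1.43% at 100 to 200, 0.712% at 300 to 500, 0.0557% at 800 to 1500 and 0% from 1500 codons. From 100 codons upward, the median log2 change of all features from 10 CPM ran with length too. It was -0.146 for 100 to 200 codons, -0.0173 for 300 to 500 and 0.24 from 1500 codons. Under 100 codons it was -0.0994. Library by library, the longest class lay 0.26 and 0.28 higher in UFM1-KO a and b than in WT library b, but 0.0831 and 0.0693 higher than in WT library a. The class of 100 to 200 codons lay at -0.244 and -0.224 against WT library b, and at -0.0521 and -0.00822 against WT library a. WT library a less WT library b gave 0.144 and -0.209 for these classes, with no knockout in the comparison. With each library's trend over length removed, edgeR called 44 features, of which 43 were among the 94.

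**Figure D4:**
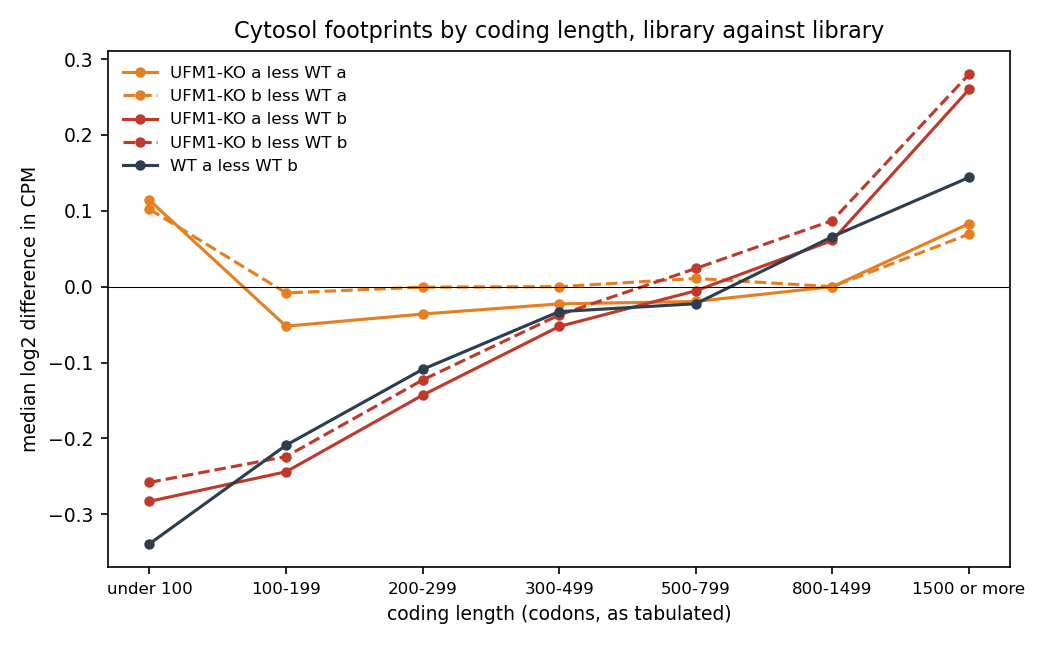
Median log2 difference in CPM between single cytosol libraries (vertical) by class of coding length (horizontal), for features averaging 10 CPM or more. Both UFM1-KO libraries run upward with length against WT library b (red), as WT library a does (dark blue), and stay between -0.0521 and 0.114 against WT library a (orange).

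Shares of footprints by length were compared over libraries. Features from 1500 codons held 3.27% ± 0.00542 of cytosol footprints in UFM1-KO and 2.79% ± 0.313 in WT (SD, n = 2 each). Features under 200 codons held 35.1% ± 1.62 in UFM1-KO and 38.1% ± 0.377 in WT. The lines did not overlap in either class, and the two-sided exact permutation p was 0.333 in both, the smallest that 2 libraries against 2 can give. Single libraries of WT held 3.02% and 2.57% from 1500 codons, so the distance between WT libraries was close to that between the lines.

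Features that rose and features that fell were placed by where they are translated. A membrane class was taken from the UFSP2-KO libraries, whose levels do not enter the change of UFM1-KO less WT, although they share its filter and its estimate of the spread: features over 2-fold higher in membrane than in cytosol footprints, with an edgeR adjusted p under 0.05 (2502 of 11065, 22.6%). It held 7 of the 18 features that rose (38.9%) and 0 of the 76 that fell. Conversely 62 of the 76 (81.6%) were on the cytosol side of that ratio, against 49.3% of all features. A fall could hardly be called in much of the membrane class. At log2 3 to 5 in that ratio, the median count was 2 in WT library a and 6 in WT library b. Of the 7 rises, 2 had 0 counts in both WT cytosol libraries and passed the filter through membrane libraries. These shares therefore give no conclusion about where the changes lie. The class took 2.13% and 1.85% of cytosol footprints in UFM1-KO and 1.85% and 1.4% in WT, a difference of 0.365 percentage points (two-sided exact permutation p = 0.333). UFM1-KO library b and WT library a were alike in this share. Features over log2 5 in that ratio had a median change of 0.519, but against WT library a it was 0 for UFM1-KO library a and -0.43 for library b, and against WT library b 0.577 and 0.282. Their median count was 2 in WT library a and 3 in WT library b, and the part of such low counts or of membrane carried over into the cytosol lysate was not tested.

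The number of calls depended on which libraries were used. Without WT library b edgeR called 9 features, all lower and all among the 76, and 0 of the 18 rises remained. Without UFM1-KO library a it called 15, of which 14 were among the 94, and without UFM1-KO library b it called 29, of which 16 were, 10 rises and 6 falls. Without WT library a it called 110, of which 67 were. Of the 94 features 25 were called in none of these 4 fits, 41 in 1 of them, 21 in 2, 5 in 3 and 2 in all 4. Directions held far better than calls: the fitted change kept its sign in 92 of 94 features without UFM1-KO library a and in all 94 without any 1 of the other 3 libraries. Since the features were selected on these same libraries, their signs are bound to persist in large part. Fitting the 4 cytosol libraries alone called 8 features, and library size without TMM scaling called 50, 23 higher and 27 lower, while it moved the median change of all features by 0.145.

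**Figure D5:**
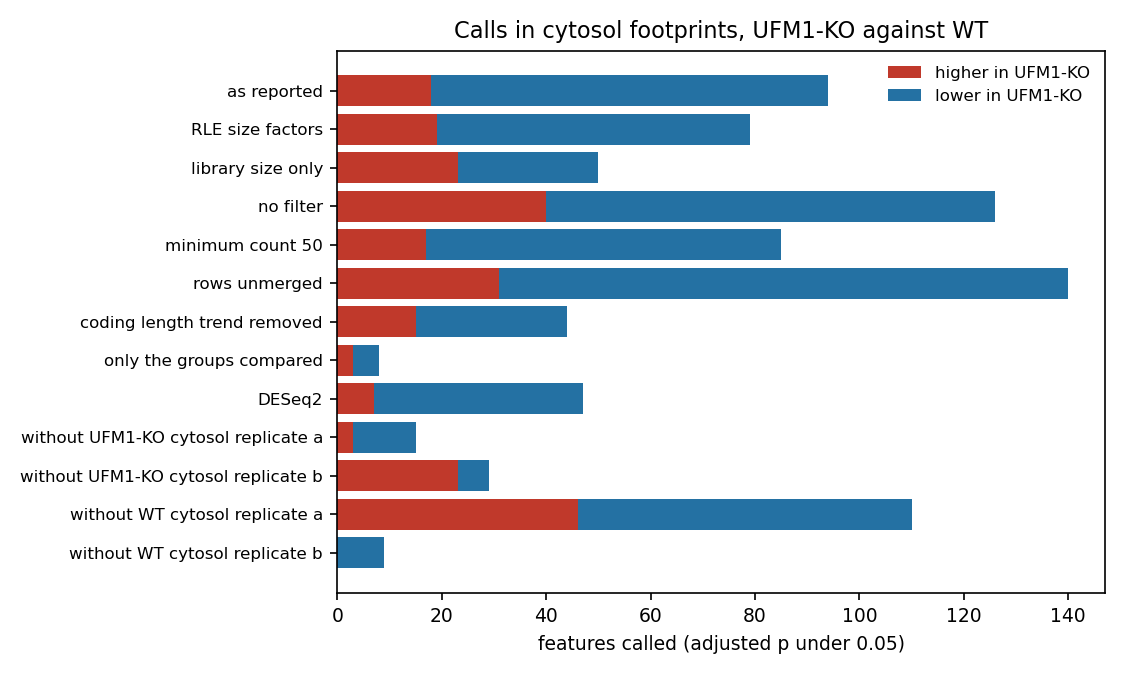
Number of features called in cytosol footprints of UFM1-KO against WT (horizontal) under the processing or set of libraries named (vertical), split into higher (red) and lower (blue) in UFM1-KO. The fit with the letters a and b as a replicate block, which called 246, is not drawn. The count was 94 as reported, 9 without WT replicate b, 8 with the compared groups alone and 110 without WT replicate a.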

How the data were processed

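Ribosome footprints were sequenced from 12 libraries and mRNA from 6. The submitters' processing notes name TopHat2 2.1.1 and the build GRCh38. How reads were counted, and on which annotation release, is not stated in the labels. The deposited tables hold raw counts as whole numbers per versioned Ensembl transcript. A second deposited column, which is another quantity, was read as coding length in codons, although its lowest value is -17. Transcripts whose counts were the same in all libraries of their assay became 1 feature: 21223 footprint transcripts with a count gave 14377 features. For mRNA, 25605 transcripts matched by unversioned ID and length were used. Counts were fitted in R 4.3.3 with edgeR 4.0.16 (filterByExpr with a minimum count of 10, TMM, 1 coefficient per group, all 12 footprint libraries in 1 fit, or all 18 for footprints less mRNA), with Benjamini-Hochberg adjustment over all features tested. SE values were derived from the F statistic. The edgeR step was tested on simulated data. Labels do not say that replicates were separate cultures, so p-values measure only the spread between these libraries. DESeq2 1.42.0 and other settings were tried. Features were named by a fixed rule: the 15 largest rises and falls among calls with no overlap between lines and at least 20 counts in a compared library, or 2 each where, as here, IDs have no gene names. Features given by length alone were picked after their values were seen. The gene lists drawn up could not be matched. The comparison, lists and tests were chosen with earlier results of these data known.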

Additional observations from a re-analysis of the deposited data

Results flagged for a closer look

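In UFM1-KO less WT, the cytosol change of 1 feature, of 182 codons, differed from its membrane change by a log2 of -5.39 (SE 0.814, edgeR adjusted p = 0.00546). Membrane library a of UFM1-KO held most of its membrane footprints, and the call ended without that library or without membrane library b of WT. The 4 named features also differed between the 2 knockouts in the cytosol, by the direct test. UFM1-KO less UFSP2-KO was 4.17 for ENST00000449193.5 (SE 0.894, edgeR adjusted p = 0.00267) and 5.11 for ENST00000368221.1 (SE 0.715, edgeR adjusted p = 2.72e-05). It was -7.76 for ENST00000397709.1 and -6.91 for ENST00000338379.5 (edgeR adjusted p = 2.04e-04 and 0.00231), fitted values that rest on 0 counts in UFM1-KO and are no bounds.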

How the results depend on the processing

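As reported, edgeR called 94 features in UFM1-KO less WT cytosol footprints, 19.1% of them higher. Leaving out 1 compared library gave 9 to 110 calls, of which 0% to 79.3% were higher. Library size only gave 50 calls (46% higher), removal of the length trend 44 (34.1%), the compared groups alone 8 (37.5%), and DESeq2 47. With no filter 31.7% of the calls were higher. For the cytosol change less the membrane change, library size only gave 4 calls, no filter 7, removal of the length trend 3, DESeq2 0 (244 unadjusted), and 1 library left out 0 to 11. For the cytosol change less mRNA, no filter gave 24 and 1 library left out 0 to 15. For UFM1-KO less UFSP2-KO, DESeq2 called 752 features, and 1 library left out gave 677 to 1011. Library size only called 1451, of which 941 were higher. RLE size factors, unmerged transcripts and a minimum count of 50 kept these counts within 1.5 times. Settings that need gene annotation (mitochondrial transcripts set apart, 1 transcript per gene) were not run.

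The labels do not say what the letters a and b mark, and with 2 letters they were not taken as pairs. Differences of library a less b correlated across features at r = 0.239 between UFM1-KO and WT cytosol, 0.22 between UFM1-KO and UFSP2-KO and 0.331 between UFSP2-KO and WT, a hint from the data that the letters share something. With the letter as a replicate block edgeR called 246 features, all 94 among them, 5 for the cytosol less the membrane change and 1 for cytosol less mRNA. The 4 named features had the same direction under every setting that tested them, and were not called in 12 of 44 such fits; DESeq2 gave no adjusted p for 3 of them. Depth limits the low features: WT library a held 1393032 counts, and under 3 CPM the median SE was 1.12.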

Other observations

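In all 3 lines, cytosol library a was over 2-fold above cytosol library b in 60 of the 7797 features averaging 10 CPM or more, and library b above library a in 3. Of the 60 features 56 were in the membrane class (93.3%), against 22.3% of the 7797, and 1 was among the cytosol calls of UFM1-KO, ENST00000449193.5. Of the 3 features, 2 were in the membrane class (66.7%). The class was defined with the UFSP2-KO cytosol libraries, which also helped to choose the 60. Many of its features had few cytosol counts, with medians of 2 and 6 in WT libraries a and b at log2 3 to 5 of the membrane-to-cytosol ratio.

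Calls in UFM1-KO cytosol were also laid out along the numbers of the Ensembl transcript IDs, in 389 consecutive windows of 20 features averaging 10 CPM or more, a layout chosen after the calls were seen. Of these, 338 windows held 0 features that fell, 49 held 1 or 2, and 2 held 3 each. The 2 windows with 3 are described because they held the most falls, so their low cytosol values are partly built in and carry no test. Of all 11065 features tested, 5314 had a negative cytosol change. In the window of ID numbers 585124 to 586746, 18 of 20 features had a negative cytosol change, with a median log2 change of -0.608 in cytosol footprints, -0.235 in membrane footprints and -0.315 in mRNA. In the window of 595753 to 599612, 17 of 20 did, with medians of -0.526, -0.459 and -0.403. Neighbouring numbers can be transcripts of 1 gene that share reads, and whether such neighbours lie near each other in the genome, or differ in copy number in this clone, was not tested.

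Of 363 features with 0 counts in both UFM1-KO cytosol libraries, 5 had at least 20 counts in WT and 2 were called. Of 303 features with 0 counts in both WT cytosol libraries, 0 had at least 20 counts in UFM1-KO and 2 were called. In UFM1-KO cytosol libraries a and b, 1 of these 2 had 4 and 5 counts and the other 3 and 8 counts. The threshold is in raw counts, and depth was unequal. The features tested held 916711 and 4331549 counts in WT, against 1267649 and 1750437 in UFM1-KO. The numbers for the 2 lines are thus not on the same scale.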
